A study of Mus musculus with 24 samples.

Results

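The primitive erythroid cells of the mouse yolk sac were compared between embryonic day (E) 8.5 and E7.5 on 6 bead arrays, chosen by their titles from the 24 arrays of a series that follows this lineage through E12.5. All 6 arrays used RNA carried through 2 rounds of linear amplification and sat on 1 slide. The E8.5 group held 3 samples and the E7.5 group held 3 samples. In both groups the embryos carried the transgene human epsilon globin::H2B-EGFP, a histone-tagged green fluorescent protein driven by an embryonic globin promoter, and GFP(+) cells were sorted from whole embryos dispersed with collagenase. Each sample pooled cells from more than 1 embryo. The sort therefore depends on a globin promoter being active, and E7.5 and E8.5 cells stand at different points of globin induction. The E8.5 arrays occupied positions A to C of the slide and the E7.5 arrays positions D to F, so slide position and age cannot be told apart. In bulk samples such as these, fewer cells of a type and less RNA per cell cannot be told apart either.

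Primitive erythroid cells are the first blood cells of the embryo. They arise in the yolk sac from mesoderm that also gives rise to endothelium, enter the circulation once the heart beats, and mature there as a cohort while they fill with hemoglobin. Maturation brings together the globin chains, the enzymes that build heme, the carriers that deliver iron and glycine to mitochondria, and a spectrin-based skeleton that anchors the surface proteins of the red cell. Regulators of the GATA family bind short GATA sequences near many of these genes.

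Of the 7 measured markers of primitive erythroid cells (Hba-x, Hbb-bh1, Gata1, Klf1, Alas2, Slc4a1 and Epor), 7 were detected on all E8.5 arrays and 6 on all E7.5 arrays. The exception was Slc4a1, detected on 2 of the 3 E7.5 arrays. Markers of other cell types were present as well. Of 8 measured visceral endoderm markers, 8 were detected on all E8.5 arrays and 5 on all E7.5 arrays. Of 8 measured endothelial markers, 4 were detected on all E8.5 arrays and 6 on all E7.5 arrays. Of 4 measured macrophage and leukocyte markers, Laptm5 was detected on all arrays, Tyrobp on 1 E8.5 array, and Ptprc and Fcer1g on none. Of 4 measured mesenchyme markers, Twist1 was detected on all arrays, Pdgfra on 2 E8.5 and 3 E7.5 arrays, and Col1a1 and Postn on none. Of 3 measured neural markers, Nes was detected on 1 E7.5 array, and Sox1 and Pax6 on none. Of 5 measured epiblast and early mesoderm markers, Dnmt3b was detected on all arrays, Eomes and Mesp1 on 2 E7.5 arrays each, Pou5f1 on 1 E7.5 array, and Mixl1 on none. Of 4 measured cardiac markers, Actc1 was detected on all arrays, Nkx2-5 on 2 E8.5 arrays and 1 E7.5 array, Tnnt2 on 1 E8.5 and 2 E7.5 arrays, and Myl7 on 2 E7.5 arrays.

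Promoter sequences of 6 genes are shown as examples of globin, heme and membrane genes that were higher at E8.5, chosen after their values and motif matches were seen: the embryonic and adult alpha globins, 2 adult beta globins, the first enzyme of erythroid heme synthesis and a blood group protein. Each is the 250 bases before the gene's start, from RefSeq on GRCm38.p6, written 5′ to 3′ on the gene's own strand. Capitals mark matches, on either strand, to GATA with A or T before it and A or G after it, hexamers that GATA factors can bind.
Hba-x, chr11:32276350-32276599, plus strand: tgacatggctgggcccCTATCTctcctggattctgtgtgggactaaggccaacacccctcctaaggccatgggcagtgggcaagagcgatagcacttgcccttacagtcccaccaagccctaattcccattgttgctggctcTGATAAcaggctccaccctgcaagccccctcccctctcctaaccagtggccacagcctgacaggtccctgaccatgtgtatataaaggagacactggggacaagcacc
Hba-a1, chr11:32283422-32283671, plus strand: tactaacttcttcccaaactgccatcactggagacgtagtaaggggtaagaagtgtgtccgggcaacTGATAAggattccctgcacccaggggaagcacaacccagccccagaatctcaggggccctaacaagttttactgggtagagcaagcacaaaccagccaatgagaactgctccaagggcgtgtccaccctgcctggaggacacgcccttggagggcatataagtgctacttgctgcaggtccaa
Hbb-bs, chr7:103827929-103828178, minus strand: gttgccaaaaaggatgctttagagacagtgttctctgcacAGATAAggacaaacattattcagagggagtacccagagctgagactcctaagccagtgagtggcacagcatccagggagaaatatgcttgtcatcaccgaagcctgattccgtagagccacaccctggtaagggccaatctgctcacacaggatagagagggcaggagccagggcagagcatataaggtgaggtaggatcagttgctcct
Hbb-bt, chr7:103813924-103814173, minus strand: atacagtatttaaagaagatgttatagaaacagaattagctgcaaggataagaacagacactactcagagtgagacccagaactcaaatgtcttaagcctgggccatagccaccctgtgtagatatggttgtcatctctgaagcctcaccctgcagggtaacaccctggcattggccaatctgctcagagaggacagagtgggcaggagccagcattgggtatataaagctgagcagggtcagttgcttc
Alas2, chrX:150547167-150547416, plus strand: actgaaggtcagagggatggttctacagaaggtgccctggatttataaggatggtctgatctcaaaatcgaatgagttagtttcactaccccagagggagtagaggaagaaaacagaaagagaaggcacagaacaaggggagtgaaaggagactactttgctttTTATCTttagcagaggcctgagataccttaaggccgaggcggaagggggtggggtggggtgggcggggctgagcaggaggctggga
Kel, chr6:41704326-41704575, minus strand: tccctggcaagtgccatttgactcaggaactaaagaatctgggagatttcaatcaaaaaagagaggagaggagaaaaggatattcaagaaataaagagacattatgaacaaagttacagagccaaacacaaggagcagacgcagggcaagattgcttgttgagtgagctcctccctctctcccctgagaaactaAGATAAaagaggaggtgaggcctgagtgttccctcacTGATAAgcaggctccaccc
Hba-x and Kel held 2 matches each, Hba-a1, Hbb-bs and Alas2 held 1 each, and Hbb-bt held 0. Such hexamers are common. They occurred in 27.1% of 27025 promoters of this length and in 18.3% of the 7034 tested genes with a promoter entry. Among genes higher at E8.5 the share was 16.2% of 427, among genes lower at E8.5 it was 14.9% of 525, and among genes not called it was 18.7% of 6082. Of the 12 red cell membrane genes that were higher and had an entry, 4 held a match (33.3%), and of the 9 such heme synthesis genes 1 did (11.1%).

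Values below are log2 signals after background correction and quantile normalization, a change is the E8.5 mean minus the E7.5 mean, and a gene was called when limma's moderated test gave an adjusted p under 0.05. Of 8568 named genes tested, 1156 were called (13.5%), of which 502 were higher at E8.5 (5.86% of genes tested) and 654 were lower (7.63%). The median change over all genes was -0.02. The 2 groups of arrays did not overlap for 2743 genes (32%), and all 1156 called genes were among these. A separation of the groups, where given below, therefore adds no support to a call. At least 4-fold changes were called for 74 genes that were higher and 120 that were lower. The number of calls depended on single arrays: it was 577 without E8.5 replicate 2, 712 without E7.5 replicate 1 and 244 (2.85%) without E7.5 replicate 2. Those 244 comprised 93 higher (1.09%) and 151 lower (1.76%) genes, each called in the same direction with all 6 arrays, and all 1156 genes kept the sign of their change without that array. That array was left out by plan, since it lies between the other E7.5 arrays. The SE and adjusted p-values below are from all 6 arrays unless a left-out array or another setting is named. Without E7.5 replicate 2 the adjusted p was 0.018 for Slc25a37 (9.1e-04 with all 6 arrays), 0.020 for Gata2 (0.0023) and 0.030 for Slc4a1 (0.0034). A set of 243 genes (2.84%), of which 93 were higher (1.09%) and 150 lower (1.75%), was called with all arrays and with each of the 6 arrays left out in turn. It is nearly the same as the 244 genes called without E7.5 replicate 2, so this rule rests mainly on that 1 fit. The other fits all keep that array. The genes described below belong to the set of 243 unless arrays that end the call are named.

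**Figure D1:**
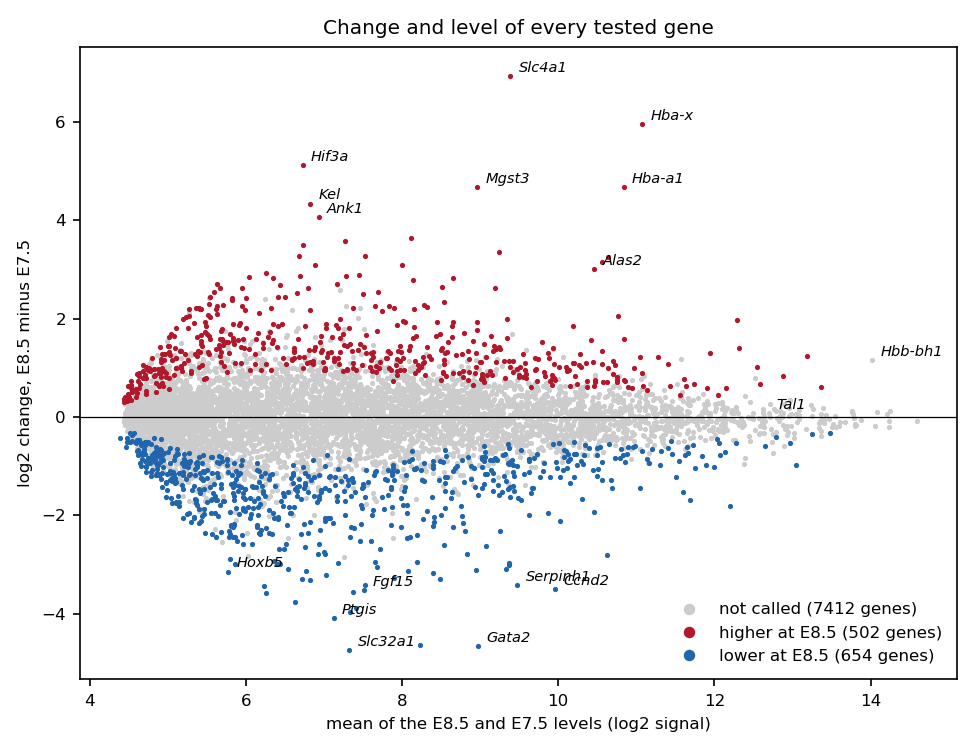
Each point is 1 of 8568 genes, with the mean of its E8.5 and E7.5 levels (log2 signal) on the x axis and its log2 change, E8.5 minus E7.5, on the y axis; red points are called higher at E8.5, blue points called lower and grey points not called. Slc4a1 at 6.93 and Hba-x at 5.95 lie at the top, while Slc32a1 at -4.74 and Gata2 at -4.65 lie at the bottom.

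Globin genes showed some of the steepest increases at E8.5. All 4 measured adult globin genes were higher, with a median change of 3.25, against 5.86% of all genes called higher and a median of -0.02. The number called was 3 without E8.5 replicate 2 and 2 without E7.5 replicate 2. Hbb-bt, an adult beta globin, was at 10.90, 11.10 and 10.74 on the E8.5 arrays, against 7.31, 7.49 and 7.91 on the E7.5 arrays. Every E8.5 array stood above every E7.5 array, with a change of 3.34 ± 0.21 (SE, adjusted p = 0.0012), which is 10.2-fold. Hbb-bs, its neighbour in the locus, changed by 3.15 ± 0.29 (SE, adjusted p = 0.0023), at 11.91, 12.44 and 12.07 on E8.5 arrays against 8.43, 9.02 and 9.52 on E7.5 arrays. These genes are near-identical copies whose probes may not tell them apart, and the other 3 probes of Hbb-bs gave changes of 2.67 to 3.20. Hbb-b2, another beta globin entry, changed by 1.51 ± 0.23 (SE, adjusted p = 0.0092, and 0.071 without E7.5 replicate 2).

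The alpha-like genes changed more and varied more within E7.5. Hba-x, the embryonic zeta-like globin, was at 13.51, 14.39 and 14.26 on the E8.5 arrays, against 4.77, 9.14 and 10.38 on the E7.5 arrays. Among all probes of an array, ranked from the brightest, it stood at 49, 4 and 8 on the E8.5 arrays and at 11234, 1919 and 942 on the E7.5 arrays. The change of 5.95 ± 1.30 (SE) had an adjusted p of 0.027, and the call ended when E7.5 replicate 2 was dropped (0.083) and when any of the E8.5 arrays was (0.056 for replicate 1, 0.089 for replicate 2, 0.077 for replicate 3). Hba-a1, an adult alpha globin, was at 12.80, 13.55 and 13.18 at E8.5, against 6.43, 9.05 and 10.03 at E7.5. Its change of 4.67 ± 0.83 (SE, adjusted p = 0.014) lost its call with replicate 2 of either age removed (0.055 for E8.5, 0.060 for E7.5). For both genes the lowest array was E7.5 replicate 1 and the groups did not overlap.

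Hbb-bh1, the embryonic beta-like globin, gave 2 answers. Its brighter probe was at 14.66, 14.66 and 14.47 on the E8.5 arrays, against 12.49, 13.78 and 14.05 on the E7.5 arrays. This probe was the brightest of the array on E8.5 replicates 1 and 2, ranked 3 on E8.5 replicate 3, and ranked 176, 28 and 16 on the E7.5 arrays. Quantile normalization gives the brightest probe of every array the same value, so 14.66 was the highest level any probe could take. Its change of 1.16 ± 0.37 (SE) was not called (adjusted p = 0.087), but it was called without E7.5 replicate 1 (0.018) or E7.5 replicate 3 (0.042), and also with median scaling in place of quantile normalization (0.039). The second probe gave a change of 2.42 with an adjusted p of 0.0043 over all probes. The embryonic Hbb-y had no probe with its symbol.

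Heme synthesis was the gene group with the highest share of increases among lists of at least 10 tested members. Of 15 tested members, 10 were higher (66.7%), 0 were lower and the median change was 1.22. Without E7.5 replicate 2, 4 remained called: Slc25a37, Alas2, Slc6a9 and Ppox. Slc25a37, the mitoferrin that carries iron into mitochondria, was at 12.53, 12.29 and 11.98 on the E8.5 arrays, against 8.85, 9.07 and 9.15 on the E7.5 arrays. Its change of 3.24 ± 0.18 (SE, adjusted p = 9.1e-04) was a 9.47-fold difference with wide separation of the groups. Alas2, the rate-limiting first enzyme in erythroid cells, was at 11.75, 12.26 and 11.89 on the E8.5 arrays, against 8.36, 9.05 and 9.47 on the E7.5 arrays. The groups did not overlap, and the change was 3.01 ± 0.29 (SE, adjusted p = 0.0024).

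Slc6a9, the glycine transporter that supplies the other substrate of Alas2, had tight groups at 11.58, 11.62 and 11.78 (E8.5) against 10.39, 10.43 and 10.49 (E7.5), a change of 1.22 ± 0.12 (SE, adjusted p = 0.0024). Ppox, a late enzyme of the pathway, was at 8.67, 9.42 and 8.85 at E8.5, against 6.84, 7.03 and 7.24 at E7.5, and changed by 1.94 ± 0.26 (SE, adjusted p = 0.0056). The enzymes between them were higher too, with calls that depended on E7.5 replicate 2. Urod changed by 1.02 (adjusted p = 0.0091, and 0.054 without that array) and Alad by 1.24 (adjusted p = 0.011, and 0.050 without it). Uros changed by 2.14 (adjusted p = 0.024), and its call ended with E7.5 replicate 2 removed (0.090), as it did with E8.5 replicate 1 (0.053) or 2 (0.083) removed. Fech, which inserts the iron, was not called, at 6.97, 7.74 and 6.27 on the E8.5 arrays against 5.97, 5.35 and 5.51 on the E7.5 arrays (change 1.38 ± 0.40 SE, adjusted p = 0.067). Its groups did not overlap, and it was called without E8.5 replicate 3 (0.037). Alas1, the housekeeping form of the first enzyme, had a change of -0.94 and was not called.

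Genes of heme export and breakdown followed with 5 of 10 tested members higher (50%, against 5.86% of all genes) and 0 lower (median change 0.55). The count was 3 without E8.5 replicate 2 or 3 and 1 without E7.5 replicate 2. The last was Hebp1, a heme-binding protein of the cytosol, at 8.17, 8.67 and 8.45 on the E8.5 arrays against 5.59, 5.48 and 4.98 on the E7.5 arrays. It changed by 3.08 ± 0.26 (SE, adjusted p = 0.0022) with no overlap. Hmox1, the inducible heme oxygenase, had overlapping groups and a change of 0.10 ± 0.48 (SE). Iron handling moved less, with 3 of 15 tested genes higher (20%), 1 lower (6.67%) and a median change of 0.19. These 4 calls became 2 without E7.5 replicate 1 and 1 without E7.5 replicate 2. Tfr2, a transferrin receptor of erythroid and liver cells, was not detected on any E7.5 array and was at least 1.19-fold higher at E8.5 (adjusted p = 0.0044). Tfrc, the main transferrin receptor, was at 11.31, 10.69 and 9.75 at E8.5, against 9.99, 9.98 and 10.01 at E7.5, and was not called (adjusted p = 0.36). It was called without E8.5 replicate 3 (0.039), the array on which it lay below the E7.5 values.

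**Figure D2:**
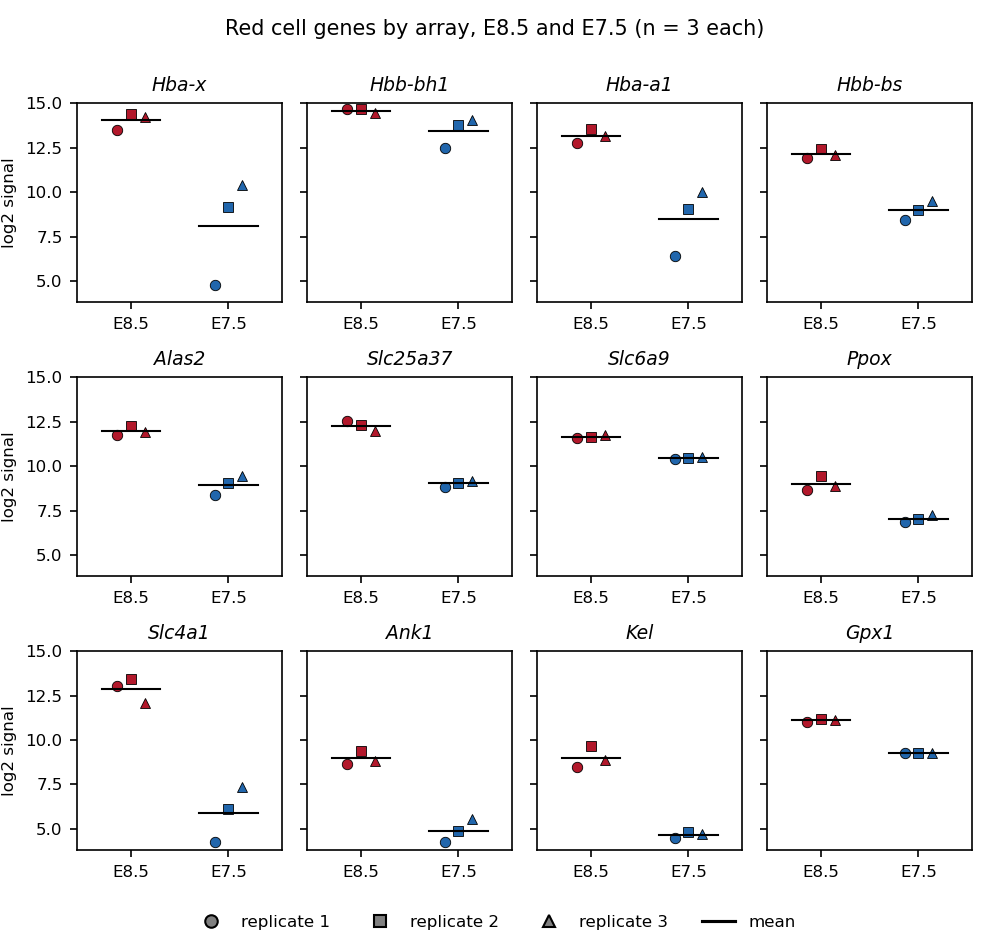
Log2 signal (y axis) of 12 globin, heme, membrane and enzyme genes on the 3 E8.5 arrays (red, left) and the 3 E7.5 arrays (blue, right); symbols mark replicates and lines mark group means. Slc25a37, Slc6a9 and Gpx1 form tight groups, whereas Hba-x, Hba-a1 and Slc4a1 are spread within E7.5, with replicate 1 lowest.

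The red cell membrane list had 16 of 31 tested members higher (51.6%) and 1 lower, with a median change of 1.10; without E7.5 replicate 2 the counts were 8 higher and 1 lower. Slc4a1, the band 3 anion exchanger, showed the largest increase of all called genes. It was at 13.02, 13.44 and 12.10 on the E8.5 arrays, against 4.27, 6.12 and 7.37 on the E7.5 arrays. The change of 6.93 ± 0.75 (SE, adjusted p = 0.0034) ranged from 6.14 to 7.69 with 1 array left out, lowest without E7.5 replicate 1, on which Slc4a1 was not detected. The E7.5 arrays were spread more widely than the E8.5 arrays. Kel, the Kell blood group endopeptidase, was at 8.47, 9.65 and 8.86 at E8.5, against 4.47, 4.80 and 4.70 at E7.5, where it was detected on 2 of 3 arrays. It changed by 4.34 ± 0.34 (SE, adjusted p = 0.0016). Kcnn4, the calcium-activated potassium channel of red cells, was at 8.71, 8.76 and 8.80 at E8.5, against 5.66, 6.26 and 6.85 at E7.5, a change of 2.50 ± 0.32 (SE, adjusted p = 0.0050).

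Skeleton genes that link spectrin to the membrane moved the same way. Ank1, the ankyrin that ties band 3 to spectrin, was at 8.66, 9.38 and 8.84 on the E8.5 arrays, against 4.28, 4.90 and 5.53 on the E7.5 arrays, with a change of 4.06 ± 0.37 (SE, adjusted p = 0.0023). Its probes disagreed: a second gave 3.49 (adjusted p = 0.0081 over all probes) and the other gave 0.15 (adjusted p = 0.66). Add1, an adducin that caps actin at the spectrin junctions, was at 10.51, 10.25 and 10.25 at E8.5, against 8.41, 8.35 and 8.27 at E7.5, a change of 1.99 ± 0.16 (SE, adjusted p = 0.0016). Tmod1, the tropomodulin at the pointed ends of those filaments, changed by 2.42 ± 0.23 (SE, adjusted p = 0.0024), Dmtn (dematin) by 1.63 ± 0.22 (SE, adjusted p = 0.0056) and Gypc (glycophorin C) by 1.48 ± 0.19 (SE, adjusted p = 0.0052). All 3 had every E8.5 array above every E7.5 array. Aqp1, the water channel, moved the other way: it was detected on no E8.5 array and at 6.31, 6.40 and 6.35 on the E7.5 arrays, so it was at least 3.57-fold lower at E8.5 (adjusted p = 0.0016). Cd44, Cd47, Slc2a1 and Tmod3, which many cell types express, had changes between -0.20 and 0.23 and were not called.

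Among red cell enzymes, 8 of 21 tested genes were higher (38.1%) and 0 lower, with a median change of 0.42. The count was 5 without E8.5 replicate 2 and 3 without E7.5 replicate 2. Gpx1, a glutathione peroxidase, averaged 11.11 ± 0.11 on the E8.5 arrays, with 11.21 the highest, against 9.27 ± 0.01 on the E7.5 arrays (SD, n = 3 each). The change of 1.84 ± 0.13 (SE, adjusted p = 0.0012) was many times the spread within either group. Mgst3, a microsomal glutathione transferase, was at 11.06, 11.48 and 11.37 at E8.5, against 5.14, 6.93 and 7.81 at E7.5. It changed by 4.67 ± 0.61 (SE, adjusted p = 0.0055), and its second probe gave 5.11. Car1, a carbonic anhydrase, was not detected at E7.5 and was at least 1.93-fold higher at E8.5 (adjusted p = 0.0030). In a separate list, of integrated stress response and chaperone genes, 4 of 35 tested members were higher (11.4%) and 4 lower (11.4%). Its median change was -0.04, and 2 higher and 0 lower members were called without E7.5 replicate 2. Those 2 were Eif2ak1 and Trib3. Eif2ak1, the heme-regulated kinase that restrains globin translation when heme is short, was at 9.23, 9.76 and 9.96 at E8.5, against 7.86, 7.94 and 8.05 at E7.5, a change of 1.70 ± 0.23 (SE, adjusted p = 0.0058). Trib3, a stress-induced pseudokinase, changed by 3.08 ± 0.40 (SE, adjusted p = 0.0053), at 8.96, 9.61 and 10.05 against 5.87, 6.42 and 7.10.

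The erythroid transcription factors did not share in this. Of 23 tested, 1 was higher and 1 lower (8.70% called), and the median change was 0.08. The calls numbered 4 without E8.5 replicate 1 and 0 without E7.5 replicate 2. Tal1, the master regulator of blood formation, was at 12.92, 12.88 and 12.41 on the E8.5 arrays, against 12.71, 12.62 and 12.63 on the E7.5 arrays, and these overlap (change 0.09 ± 0.15 SE, adjusted p = 0.78). Lmo2, its bridging partner, was at 11.87, 11.72 and 11.39 at E8.5, against 11.86, 11.81 and 11.51 at E7.5 (change -0.06 ± 0.16 SE, adjusted p = 0.85). Klf1, the activator of adult beta globin, was at 10.86, 11.09 and 10.95 at E8.5, against 10.06, 10.68 and 10.95 at E7.5 (change 0.40 ± 0.23 SE, adjusted p = 0.32). Its lowest value was on E7.5 replicate 1, the array with the lowest globin signals.

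Gata1 was at 6.38, 7.80 and 7.48 on the E8.5 arrays, against 7.64, 7.69 and 7.57 on the E7.5 arrays, with a change of -0.42 ± 0.37 (SE, adjusted p = 0.55). Nfe2, a globin locus activator, had a change of 1.03 ± 0.32 (SE, adjusted p = 0.076) with no overlap between groups, and was called without E7.5 replicate 3 (0.023) or with median scaling (0.039). Of the 2 called members, Klf3, a Klf1-induced repressor, was detected on no E7.5 array and was at least 3.88-fold higher at E8.5 (adjusted p = 0.014, 0.085 without E7.5 replicate 2 and 0.059 in the authors' processed values). Myb, which drives definitive rather than primitive erythroid expansion, was at 5.18, 5.56 and 4.98 at E8.5, against 7.41, 7.06 and 6.77 at E7.5. It fell by 1.84 (adjusted p = 0.0083, and 0.060 without E7.5 replicate 2).

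**Figure D3:**
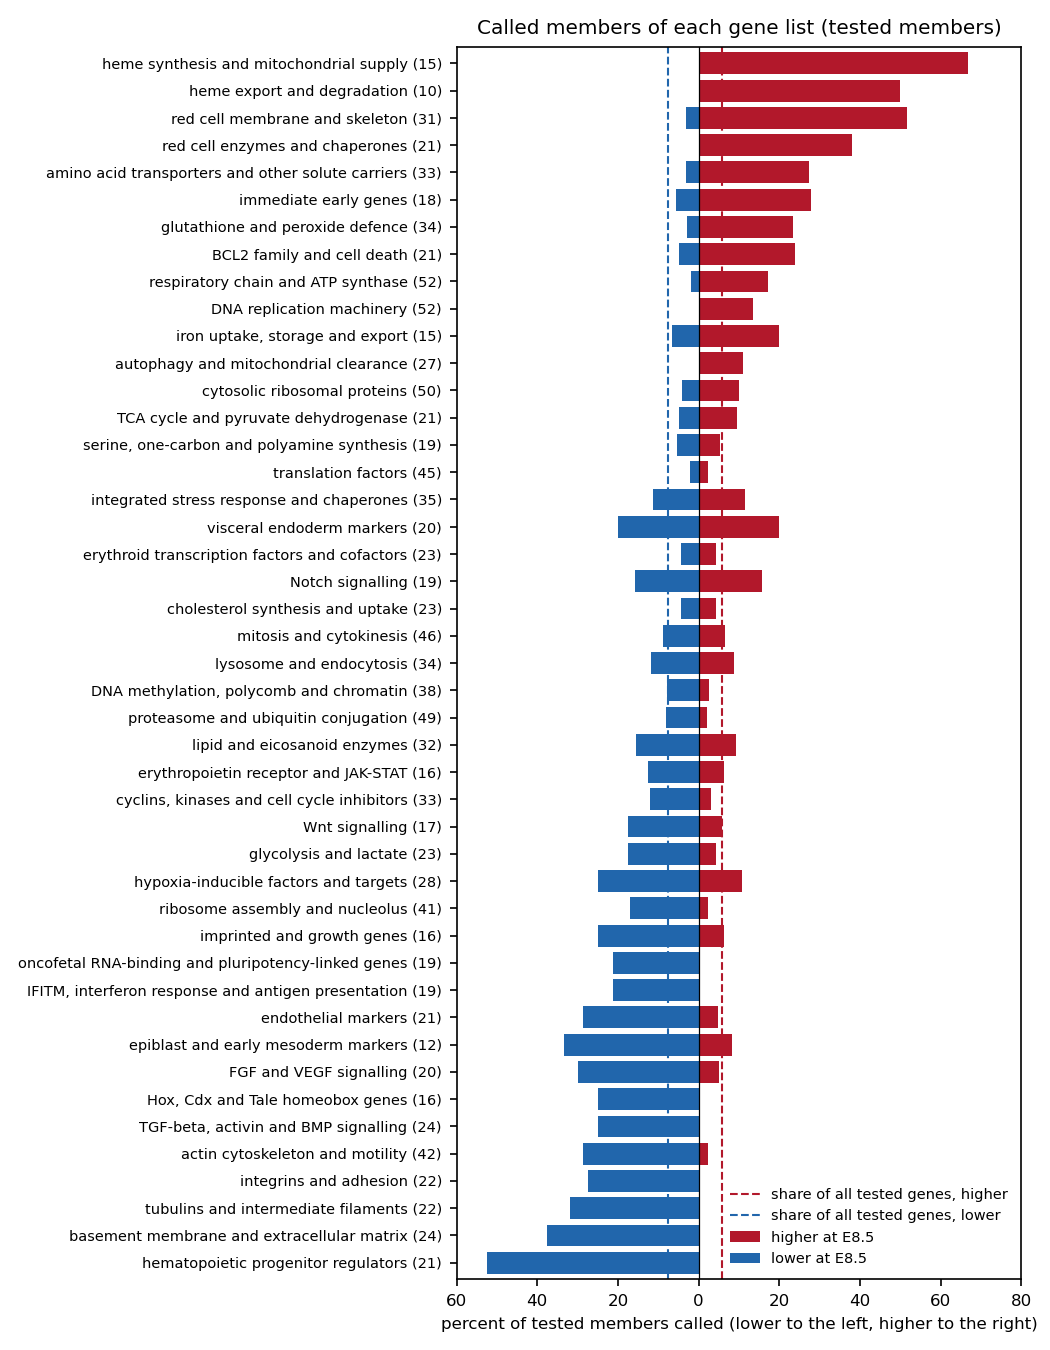
For each gene list with at least 10 tested members (number in parentheses), bars give the percent of tested members called higher at E8.5 (red, right) and lower at E8.5 (blue, left); dashed lines mark the shares over all tested genes, 5.86% higher and 7.63% lower. Heme synthesis and membrane genes extend farthest to the right and progenitor regulators farthest to the left.

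Regulators of the hematopoietic progenitor state were lower at E8.5, with 11 of 21 tested members called lower (52.4%), 0 higher and a median change of -0.87. The count was 5 without E8.5 replicate 2, 7 without E8.5 replicate 3 and 1 without E7.5 replicate 2. The 1 gene called in every one of these fits was Gata2, the GATA factor of progenitors that gives way to Gata1 in maturing cells. It was at 5.93, 6.55 and 7.46 on the E8.5 arrays, against 11.65, 11.43 and 10.82 on the E7.5 arrays. The gap of 4.65 log2 units, a 25.1-fold decrease (SE 0.41, adjusted p = 0.0023), was far wider than the range within either group.

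Etv2, the mesoderm factor that specifies blood and endothelium, was at 6.46, 5.13 and 5.48 at E8.5, against 9.35, 8.75 and 7.89 at E7.5. It fell by 2.97 (adjusted p = 0.010, and 0.064 without E7.5 replicate 2). Runx1, the definitive hematopoietic regulator, was detected on 1 of 3 E8.5 arrays, at 4.45, 4.22 and 6.81, against 7.75, 8.55 and 9.12 at E7.5. It fell by 3.31 (adjusted p = 0.027), and the call ended with E8.5 replicate 1 (0.068) or 2 (0.086) removed, and with E7.5 replicate 2 (0.12) or 3 (0.063) removed. Hhex, an early blood and endothelial homeobox factor, fell by 1.37 (adjusted p = 0.0068, and 0.064 without E7.5 replicate 2), and Notch1 fell by 1.98 (adjusted p = 0.0095, and 0.062 without that array). The Notch signalling list was balanced, with 3 of 19 tested members higher (15.8%) and 3 lower (15.8%), and 0 were called without that array. Cd34, a surface marker of progenitors, was near the detection limit in both groups and had a change of -0.02.

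Endothelial markers had 6 of 21 tested members lower (28.6%) and 1 higher, with a median change of -0.36; 4 were called without E8.5 replicate 2 and 1 without E7.5 replicate 2. Their mean level was 6.12, 6.14 and 6.37 on the E8.5 arrays, against 7.15, 6.96 and 6.67 on the E7.5 arrays. Cdh5 (VE-cadherin), the endothelial junction protein, was at 4.44, 5.09 and 4.60 on the E8.5 arrays, of which 2 detected it, against 7.32, 6.97 and 6.58 on the E7.5 arrays. It fell by 2.24 (SE 0.29, adjusted p = 0.0053). Kdr, the VEGF receptor of blood and vessel precursors, had a change of 0.48 ± 0.24 (SE, adjusted p = 0.26). Pecam1 was at 6.73, 6.55 and 8.75 at E8.5, against 8.85, 8.98 and 9.20 at E7.5, and was not called (adjusted p = 0.10); without E8.5 replicate 3, the highest of its group, it was (0.0063). Laptm5, a lysosomal protein of blood cells, was at 9.18, 8.66 and 9.85 at E8.5, against 12.27, 12.04 and 11.79 at E7.5, and fell by 2.80 (SE 0.30, adjusted p = 0.0034).

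Basement membrane and matrix genes were another group with decreases. Of 24 tested, 9 were lower (37.5%), 0 were higher and the median change was -0.79; 5 were called without E7.5 replicate 2, and these 5 stayed called with each other array left out. Serpinh1, the collagen chaperone Hsp47, was at 7.82, 7.61 and 7.86 on the E8.5 arrays, against 11.46, 11.20 and 10.90 on the E7.5 arrays, and fell by 3.42 (SE 0.19, adjusted p = 9.1e-04). The chains it helps to fold moved with it. Col4a1 was at 7.72, 7.48 and 8.09 at E8.5, against 10.55, 10.39 and 10.22 at E7.5, and fell by 2.62 (SE 0.21, adjusted p = 0.0016). Col4a2, transcribed from the same locus in the opposite direction, was at 7.72, 7.47 and 8.18 at E8.5, against 10.90, 10.96 and 10.79 at E7.5, and fell by 3.09 (SE 0.21, adjusted p = 0.0012). Lamb1, a laminin chain, and Mmp14, a membrane-bound matrix protease, were detected on no E8.5 array and on all E7.5 arrays. Lamb1 was at least 1.64-fold lower (adjusted p = 0.0025) and Mmp14 at least 2.75-fold lower (adjusted p = 0.0029).

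Some cytoskeletal genes outside the red cell skeleton were also called lower. Among tubulins and intermediate filaments 7 of 22 tested members were lower (31.8%) and 0 higher, with 4 called when E8.5 replicate 2 or either of E7.5 replicates 1 and 2 was removed. Vim (vimentin) was at 7.954, 7.473 and 8.261 on the E8.5 arrays, against 11.496, 10.937 and 10.139 on the E7.5 arrays, and fell by 2.96 (SE 0.37, adjusted p = 0.0050). Tuba1a, an alpha tubulin, fell by 2.59 (SE 0.32, adjusted p = 0.0047), and Stmn1, a microtubule-destabilizing protein, fell by 1.36 (SE 0.16, adjusted p = 0.0040), at 8.39, 8.34 and 8.37 against 9.87, 9.61 and 9.70. Actin and motility genes had 12 of 42 tested members lower (28.6%, against 7.63% of all genes), 1 higher (2.38%) and a median change of -0.70. That count of 13 called was 3 without E8.5 replicate 2, 4 without E7.5 replicate 1 and 1 without E7.5 replicate 2.

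**Figure D4:**
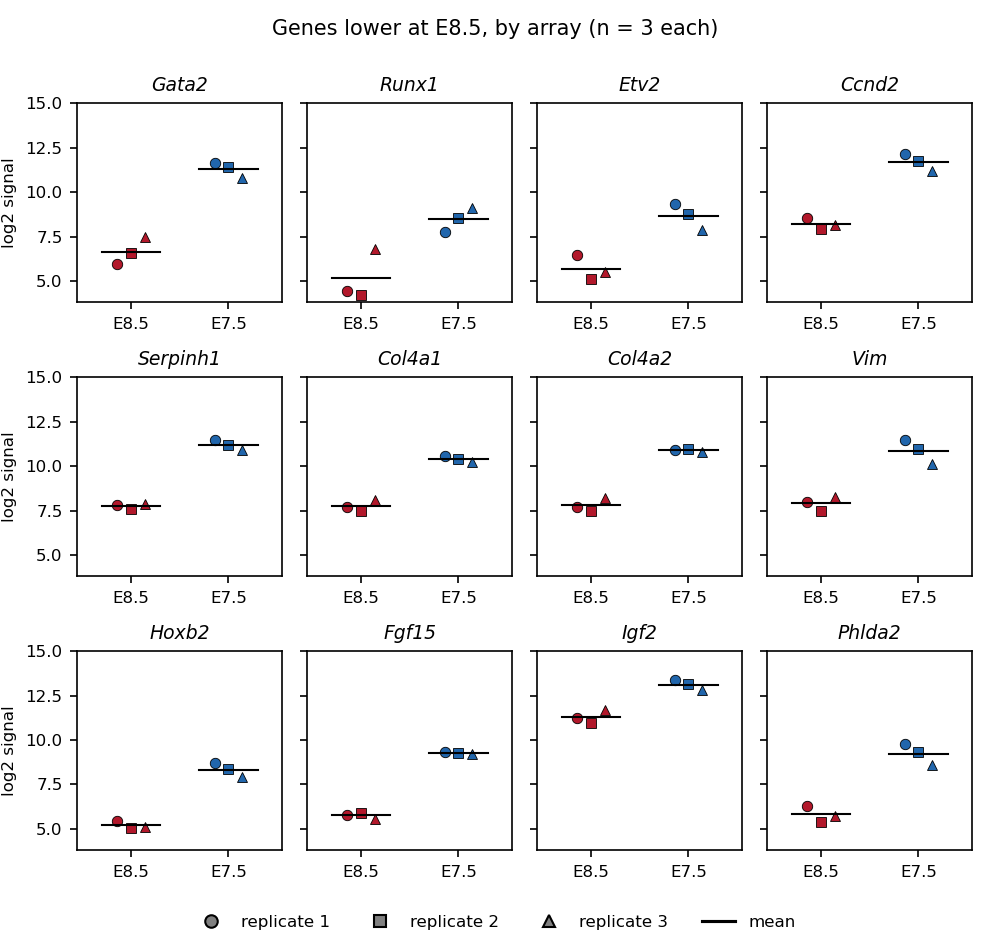
Log2 signal (y axis) of 12 genes lower at E8.5, on the 3 E8.5 arrays (red, left) and the 3 E7.5 arrays (blue, right); symbols mark replicates and lines mark group means. The groups are apart for every gene shown, and Runx1 has the widest E8.5 spread, from 4.22 to 6.81.

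Ligands of the FGF family were among the clearest decreases of signalling genes. In the FGF and VEGF list 6 of 20 tested members were lower (30%) and 1 higher (median change -0.51), with 3 called without E7.5 replicate 2, and those 3 were FGF ligands. Fgf15 was at 5.81, 5.90 and 5.56 on the E8.5 arrays, against 9.35, 9.26 and 9.20 on the E7.5 arrays, and fell by 3.52 (SE 0.20, adjusted p = 9.1e-04). Fgf3, another ligand of the family, was detected on 1 of 3 E8.5 arrays and fell by 1.95 (SE 0.19, adjusted p = 0.0025). Fgf5, an epiblast ligand, was detected on no E8.5 array and was at least 1.77-fold lower (adjusted p = 0.0023). Dnmt3b, the de novo DNA methyltransferase of epiblast cells, was at 10.97, 10.73 and 10.82 at E8.5, against 12.83, 12.54 and 12.21 at E7.5, and fell by 1.69 (SE 0.17, adjusted p = 0.0028).

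Other pathways gave a few members each. In the Wnt list 3 of 17 tested members were lower (17.6%) and 1 higher (5.88%), against 7.63% and 5.86% of all genes. The number called was 2 without E8.5 replicate 2 or 3 or without E7.5 replicate 2. Fzd7, a Wnt receptor, was at 4.60, 4.64 and 5.13 at E8.5, against 7.92, 7.48 and 6.72 at E7.5, and fell by 2.58 (SE 0.36, adjusted p = 0.0061). Fzd5 was at 8.14, 7.86 and 8.04 at E8.5, against 6.33, 6.33 and 6.57 at E7.5, a change of 1.61 (adjusted p = 0.0054), but its second probe gave 0.47 (adjusted p = 0.12 over all probes). Of 24 tested TGF-beta, activin and BMP genes, 6 were lower (25%) and 0 higher. Smad4, the shared mediator of those signals, was at 9.21, 8.83 and 8.64 at E8.5, against 11.16, 10.80 and 10.57 at E7.5, and fell by 1.95 (SE 0.22, adjusted p = 0.0037). Without E7.5 replicate 2, 1 member of that list, Smad4, stayed called, 2 were called without E8.5 replicate 2 or E7.5 replicate 1, and 3 without E8.5 replicate 3.

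A pair of Hox genes and a pair of imprinted growth genes fell in every fit. Hoxb2 was at 5.43, 5.07 and 5.13 on the E8.5 arrays, against 8.73, 8.36 and 7.92 on the E7.5 arrays, and fell by 3.13 (SE 0.28, adjusted p = 0.0023). Hoxb5, from the same cluster, was detected on no E8.5 array and was at 7.93, 7.46 and 6.64 on the E7.5 arrays, at least 7.09-fold lower at E8.5 (adjusted p = 0.0034). Igf2, the fetal growth factor, was at 11.25, 10.95 and 11.70 at E8.5, against 13.38, 13.16 and 12.80 at E7.5, and fell by 1.81 (SE 0.22, adjusted p = 0.0047). Phlda2, an imprinted restrainer of placental growth, was at 6.30, 5.40 and 5.75 at E8.5, against 9.76, 9.34 and 8.59 at E7.5, and fell by 3.41 (SE 0.37, adjusted p = 0.0034).

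Among cyclins, kinases and inhibitors the called share was 15.2% of 33 tested genes (1 higher, 4 lower), close to the 13.5% of all genes. It was 2 genes without E8.5 replicate 2 or 3 or without E7.5 replicate 1 or 2, and 3 without E7.5 replicate 3. Ccnd2, the D-type cyclin that carries growth factor signals into the cell cycle, was nevertheless among the 12 largest decreases. It was at 8.56, 7.91 and 8.17 on the E8.5 arrays, against 12.16, 11.77 and 11.22 on the E7.5 arrays, fell by 3.50 (SE 0.28, adjusted p = 0.0016), and fell by 3.34 on its second probe. Cdkn1a, the p21 inhibitor, was detected at E8.5 but on no E7.5 array by its brighter probe, which was at least 1.84-fold higher (adjusted p = 0.0038), while its second probe gave a change of -0.22. Cdkn1c was not called (change -0.70 ± 0.22 SE, adjusted p = 0.080), except without E7.5 replicate 3 (0.041). DNA replication genes had 7 of 52 higher and 0 lower, a called share of 13.5%, with 1 call without E8.5 replicate 2 or E7.5 replicate 2, 2 without E7.5 replicate 3, 3 without E7.5 replicate 1 and 4 without E8.5 replicate 3. Orc3, a subunit of the origin recognition complex, was at 7.21, 7.18 and 6.85 at E8.5, against 4.91, 4.89 and 4.91 at E7.5 (change 2.18 ± 0.22 SE, adjusted p = 0.0025).

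Stress and response genes moved individually. Dusp1, a phosphatase that switches off MAP kinases and is an immediate early gene, was at 9.89, 9.87 and 9.77 on the E8.5 arrays, against 7.03, 7.17 and 7.38 on the E7.5 arrays, a change of 2.65 ± 0.18 (SE, adjusted p = 0.0012). In its list 5 of 18 tested members were higher (27.8%) and 1 lower (5.56%), against 5.86% and 7.63% of all genes. The number called was 3 without E8.5 replicate 2 and 2 without E7.5 replicate 2. Fos, the classical member, had overlapping groups and a change of 0.59 ± 0.39 (SE). Of 28 tested hypoxia-related genes, 3 were higher (10.7%) and 7 lower (25%). The number called was 4 without E8.5 replicate 2, 6 without E8.5 replicate 3 or E7.5 replicate 1, and 3 without E7.5 replicate 2.

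Hif3a, a hypoxia-inducible factor subunit, was at 9.56, 8.90 and 9.41 on the E8.5 arrays and was not detected on any E7.5 array by its brighter probe, which was at least 26.7-fold higher (adjusted p = 9.1e-04). Its second probe did not follow, with a change of 0.22 (adjusted p = 0.67 over all probes). Mxi1, an antagonist of MYC, was at 8.404, 7.847 and 8.003 at E8.5, against 6.362, 6.417 and 6.394 at E7.5, a change of 1.69 ± 0.23 (SE, adjusted p = 0.0058). Egln3, a prolyl hydroxylase that marks these factors for degradation, fell by 2.08 on its brighter probe (adjusted p = 0.0033), while its second probe gave 0.54.

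Other genes stood out beyond these lists. Slc32a1, the vesicular transporter of inhibitory transmitters in neurons, showed the largest decrease of all called genes. It was at 4.48, 4.95 and 5.43 on the E8.5 arrays, detected on 2 of them, against 9.48, 9.74 and 9.87 on the E7.5 arrays, and fell by 4.74 (SE 0.29, adjusted p = 0.0011). Uba7, the activating enzyme for the ubiquitin-like protein ISG15, was at 8.72, 9.49 and 8.94 at E8.5, against 5.28, 5.49 and 5.67 at E7.5, a change of 3.57 ± 0.27 (SE, adjusted p = 0.0015). Pdgfa, a platelet-derived growth factor, was at 4.28, 4.54 and 4.58 at E8.5, against 8.73, 8.24 and 7.16 at E7.5, and fell by 3.58 (SE 0.41, adjusted p = 0.0037). Smpdl3b, a membrane-anchored lipid phosphodiesterase, fell by 3.43 (SE 0.36, adjusted p = 0.0030). For all 4 genes every E8.5 array lay on the same side of every E7.5 array.

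Several housekeeping groups stayed near the background of 13.5% called and a median change of -0.02. Translation factors had 2 of 45 called (4.44%, median -0.07), cholesterol genes 2 of 23 (8.70%, median 0.06), proteasome and ubiquitin genes 5 of 49 (10.2%, median -0.04), chromatin genes 4 of 38 (median -0.09), autophagy genes 3 of 27 (11.1%, median 0.05), cytosolic ribosomal proteins 7 of 50 (14%, median -0.09) and TCA cycle genes 3 of 21 (14.3%, median 0.09). With 1 array left out the called members ranged from 1 to 4 for translation factors, 0 to 3 for cholesterol, 0 to 6 for proteasome, 2 to 5 for chromatin, 0 to 2 for autophagy, 1 to 8 for ribosomal protein and 0 to 4 for TCA cycle genes, and the lowest count of each came without E7.5 replicate 2. Respiratory chain genes had 9 of 52 higher (17.3%, against 5.86% of all genes) and 1 lower (1.92%), with a median change of 0.24. That count of 10 called was 4 without E8.5 replicate 2, 5 without E7.5 replicate 1 or 3, and 1 without E7.5 replicate 2. The last was Ndufb2, a complex I subunit, at 5.96, 6.15 and 6.39 on the E8.5 arrays against 4.50, 4.87 and 4.71 on the E7.5 arrays, of which 2 detected it (change 1.48 ± 0.20 SE, adjusted p = 0.0061). Ribosome assembly genes had 7 of 41 lower (17.1%, against 7.63% of all genes) and 1 higher (2.44%), with a median change of -0.36. These 8 calls became 5 without E8.5 replicate 2, 3 without E8.5 replicate 3 or E7.5 replicate 1, 2 without E7.5 replicate 3 and 0 without E7.5 replicate 2.

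The E7.5 replicates differed among themselves. E7.5 replicate 2 correlated at 0.986 with replicate 1 and 0.977 with replicate 3 across the tested genes, while replicates 1 and 3 correlated at 0.940, and E8.5 replicates correlated at 0.954 to 0.973. Between replicates 1 and 3, 234 genes were at least 4-fold apart, and replicate 2 lay between them for all 234. Over all tested genes, replicate 2 lay between replicates 1 and 3 for 70.1%. The p-values from all 6 arrays take the E7.5 samples as independent, which was not tested. The 81 genes higher on replicate 3 included Hba-x, Hba-a1, Slc4a1 and Mgst3. Of these 81, 6 were called higher at E8.5 (7.41%) and 0 lower. The 153 genes higher on replicate 1 included the visceral endoderm genes Amn, Apom, Gata4, Rhox5 and Ttr and the vessel genes Aplnr and Esam. Of these 153, 4 were called higher at E8.5 (2.61%) and 4 lower (2.61%). Over all tested genes the shares were 5.86% higher and 7.63% lower. Both sets were chosen for a wide spread within E7.5, which itself makes a call harder. Their called shares therefore cannot be read against these background shares.

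The mean level of the 31 membrane genes was 7.80, 7.94 and 7.80 on the E8.5 arrays, against 6.32, 6.63 and 6.86 on the E7.5 arrays. The mean of the 21 progenitor regulators was 6.17, 6.03 and 6.20 at E8.5, against 7.51, 7.31 and 7.01 at E7.5. In both lists E7.5 replicate 3 was nearest to the E8.5 arrays. Over single genes the same array was the nearest to the E8.5 mean for 55.8% of the 654 called lower, against 36.4% of the genes not called. Among the 502 called higher, replicate 3 was nearest for 44.2% and replicate 1 for 41.8%, against 36.4% and 34.2% of the genes not called. Replicate 2 was nearest for 14.2% of the genes called lower and 13.9% of those called higher, against 29.4% of the genes not called. These differences from the genes not called are partly built in. The groups of every called gene do not overlap, so its nearest E7.5 array is the highest or lowest of that group. Replicate 2 lay between replicates 1 and 3 for 70.1% of all tested genes, which lowers its share and raises theirs.

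Markers of visceral endoderm, the yolk sac layer next to the blood islands, varied within both groups. The mean of the 20 tested genes was 7.20, 6.63 and 6.36 on the E8.5 arrays, against 6.44, 6.24 and 5.72 on the E7.5 arrays, so replicate 1 was highest in each. Ttr, a thyroid hormone carrier made in that layer, was at 9.45, 8.57 and 7.23 at E8.5, against 7.09, 6.44 and 4.94 at E7.5, with a change of 2.26 ± 0.71 (SE, adjusted p = 0.082). Amn, an endocytic receptor component, was at 9.40, 8.06 and 8.03 at E8.5, against 7.19, 6.38 and 4.17 at E7.5 (adjusted p = 0.074), and was called without E7.5 replicate 1 (0.045). Afp, alpha-fetoprotein, was at 8.94, 7.17 and 6.25 at E8.5, against 4.43, 4.87 and 5.84 at E7.5 (adjusted p = 0.066), and was called without E8.5 replicate 3 (0.042). Dab2, an endocytic adaptor, was at 8.555, 7.941 and 6.774 at E8.5, against 4.997, 4.980 and 4.846 at E7.5. It changed by 2.82 ± 0.44 (SE, adjusted p = 0.0096, and 0.060 without E7.5 replicate 2). Apoa1, an apolipoprotein, was at 7.33, 7.67 and 7.02 at E8.5, against 6.38, 6.10 and 6.23 at E7.5. Its change of 1.11 ± 0.25 (SE, adjusted p = 0.031) lost its call with E8.5 replicate 1 (0.053) or 2 (0.098) removed, and with E7.5 replicate 1 (0.064), 2 (0.16) or 3 (0.063) removed. The list as a whole was mixed, with 4 of 20 tested members higher (20%) and 4 lower (20%), against 5.86% and 7.63% of all genes. Its changes were positive for 11 members and negative for 9, with a median of 0.30, so the genes above are not typical of it. The count of 8 called was 4 with E8.5 replicate 1 or 2 or E7.5 replicate 1 removed, and 1 with E7.5 replicate 2 removed. The last was Gata6, an endoderm factor, whose brighter probe was detected on no E8.5 array and was at least 1.63-fold lower (adjusted p = 0.0061). The part of these cells in the changes above was not tested.

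**Figure D5:**
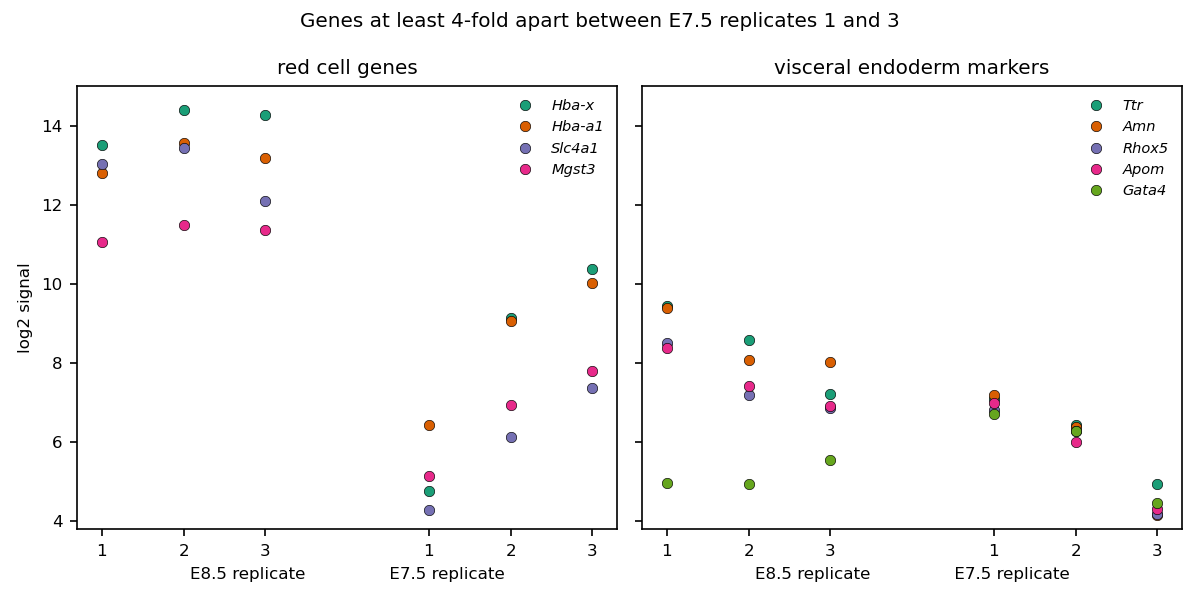
Log2 signal (y axis) on each array (x axis, E8.5 replicates left of E7.5 replicates) of 4 red cell genes and 5 visceral endoderm markers that were at least 4-fold apart between E7.5 replicates 1 and 3. The genes were chosen for that difference, so their order within E7.5 is built in; the endoderm gene Afp, at 4.43, 4.87 and 5.84 on the E7.5 arrays, runs the other way. All 4 red cell genes stand higher on every E8.5 array than on any E7.5 array.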

How the data were processed

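Signals of 6 bead arrays (45719 probes each) were used, 3 of E8.5 and 3 of E7.5 cells. The deposited file gives, per the file headers, a non-normalized intensity and a detection p-value for each probe and sample. A second deposited table holds the authors' own processed log2-like values, with no transform stated, and served as an alternative. The scanner software and probe summary are not given in the sources used here. Background was corrected by normexp (offset 16), with the negative control distribution estimated through the detection p-values, and arrays were quantile normalized (limma 3.58.1, R 4.3.3). Between 13159 and 14037 probes per array had a detection p under 0.05, and a probe was tested when this held on at least 3 of the 6 arrays (13941 probes). Gene symbols came from the platform annotation (29490 probes with 1 symbol, 8 with several, 16221 with none). A gene with several tested probes (1802 genes) was represented by the probe with the highest mean. A linear model with an intensity trend in the variance was fitted, and p-values were adjusted by Benjamini-Hochberg over 8568 genes. A called gene has an adjusted p under 0.05. No label says which embryos were shared, so p-values reflect spread between samples alone, and the number of arrays limits the precision. A gene whose probe was not detected on any array of a group is given as at least N-fold, against the higher of the lowest detected signal and the probe's own value on each array. That bound rests on group means of normalized log2 values.

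In data simulated from these arrays (8568 genes, E8.5 against E7.5), 67 genes were changed by 1.5-fold, 67 by 2-fold and 66 by 4-fold. The test recovered 14.9% of the 1.5-fold, 38.8% of the 2-fold and 86.4% of the 4-fold changes, with 8 false calls among 101. The real arrays gave 1156 calls, so these rates describe the simulated setting alone. Whether they hold if the E7.5 samples are not independent was not tested. The filter on detection favours genes detected in 1 group: 73 of 111 genes detected on all E8.5 and no E7.5 arrays were called, and 69 of 86 in the reverse case. The arrays and gene lists were chosen with earlier results of these data known. Named genes were the 12 largest called increases and decreases, a list of key genes, up to 6 called members of each gene list in each direction by smallest adjusted p, called members moving against their list, and members with a defined role in a pathway. From these, the text gives mainly genes called with each array left out. Promoters were read from RefSeq (GRCm38.p6) for 7034 of the 8568 tested genes by symbol.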

Additional observations from a re-analysis of the deposited data

How the results depend on the processing

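Against 1156 calls (502 higher, 654 lower), a larger normexp offset, cyclic loess, the authors' processed values, a stricter detection filter and other rules for probes gave 1092 to 1391 calls. Without normalization between arrays 1023 were called, of which 53.9% were higher, against 43.4% with quantile normalization, and with median scaling 51.1% of 1207 were higher. Without a detection filter 828 of 17583 genes were called, 328 of them higher. Tested against a change of 1.5-fold, 229 genes were called (89 higher, 140 lower). With array weights 2589 were called (1176 higher, 1413 lower), with a weight of 6.99 for E7.5 replicate 2, but the weights did not reach their convergence tolerance. With 1 array left out, the counts ranged from 244 to 1190 in all, from 93 to 520 higher and from 151 to 670 lower, and the lowest of each was without E7.5 replicate 2, whose 244 calls set against 1156 with all 6 arrays. That fit has 3 residual degrees of freedom in place of 4. With the replicate number as a block, 984 genes were called (429 higher, 555 lower), of which 885 were also called without it. The same-numbered arrays deviated together with correlations of 0.12, -0.05 and 0.06, so the numbers were not taken to pair samples. The direction of the 104 genes named in the text did not turn to the opposite call in any of these settings, and 57 of the 73 called ones stayed called with each array left out. Among all 1156 called genes, 10 took the opposite sign when a gene was given as the mean of its probes. Under other settings than leaving out arrays or testing against 1.5-fold, a called gene lost its call in 6 instances: Klf3 in the authors' values (adjusted p = 0.059), Cdkn1a (0.079) and Egln3 (0.086) as means over their probes, Apoa1 without a detection filter (0.061), and Apoa1 (0.065) and Twist1 (0.069) with the replicate block. With the replicate block, the visceral endoderm genes Amn (0.029), Apom (0.034), Rhox5 (0.049) and Ttr (0.013) were called higher at E8.5, which they were not without it. Hbb-bh1 (0.046) and Nfe2 (0.040) were called without normalization between arrays, Hbb-bh1 as the mean of its probes (0.010) and Afp under the stricter filter (0.045). The causes were not tested.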
